A study of Mus musculus with 6 samples.

Results

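Txnip, its relative Arrdc4 and 8 genes of glucose uptake and glycolysis were followed across 6 mouse expression arrays of fibroblasts under conversion to parvalbumin neurons. The 10 members are Txnip, Arrdc4, Slc2a1, Hk1, Hk2, Pfkl, Pfkp, Pfkfb3, Ldha and Pdk1, of 22180 genes in all. They were taken by symbol, each through its probe set with a single symbol and the highest mean over the arrays, and all 10 were found. They were chosen partly by the measured Txnip intensities, which were low at day 3, so the values of the time course are given as a description.

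Each of the 6 groups had 1 array. The groups were mouse embryonic fibroblasts (MEF), induced cells (iPV) at 3, 7 and 14 days, a green-fluorescent fraction sorted from the 14 day induced cells, and a sample whose label reads endogenous PV, taken as parvalbumin neurons. All samples carry the genotype PV-GFP transgenic, strain C57BL/6 and a stage of 13.5 embryonic days, the sample labelled endogenous PV included. All 6, MEF included, also carry the same statement on adenovirus infection, and the labels used here name neither the delivered factors nor the promoter behind PV-GFP. Values are log2 intensities. With 1 array a group no difference has a replicate check, no test was possible, and the number of arrays limits the precision.

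The thioredoxin-interacting protein Txnip is an alpha-arrestin that binds thioredoxin and brings glucose transporters in from the cell surface, which lowers glucose uptake. Its transcription is known to follow intracellular glucose through the sensor proteins MondoA (gene Mlxip) and ChREBP (gene Mlxipl) with their partner Mlx, which bind paired E-boxes called carbohydrate response elements. Arrdc4 is its closest relative and is known to answer to the same sensors. In glycolysis glucose enters through carriers such as Slc2a1, is trapped by hexokinases and committed by phosphofructokinase, and pyruvate then leaves as lactate or enters mitochondria, and fibroblasts and neurons are known to use this route differently.

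Promoter sequence is shown for the 2 alpha-arrestins, because their values diverged, and for the glycolysis members that were most often higher than in MEF. Each line gives the 250 bases before the annotated start, 5′ to 3′, from RefSeq on build GRCm38.p6, with matches to 3 motifs in capitals.
Txnip chr3:96557707-96557956 + strand: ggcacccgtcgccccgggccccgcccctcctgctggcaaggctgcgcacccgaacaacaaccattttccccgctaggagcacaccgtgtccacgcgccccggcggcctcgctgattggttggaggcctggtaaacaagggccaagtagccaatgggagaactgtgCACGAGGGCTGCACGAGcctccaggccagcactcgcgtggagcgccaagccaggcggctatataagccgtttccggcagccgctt
Arrdc4 chr7:68749239-68749488 - strand: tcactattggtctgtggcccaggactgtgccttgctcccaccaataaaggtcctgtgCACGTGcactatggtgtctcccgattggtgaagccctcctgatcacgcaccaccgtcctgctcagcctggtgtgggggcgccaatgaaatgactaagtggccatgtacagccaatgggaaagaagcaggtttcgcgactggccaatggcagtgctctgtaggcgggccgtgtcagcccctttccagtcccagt
Slc2a1 chr4:119108495-119108744 + strand: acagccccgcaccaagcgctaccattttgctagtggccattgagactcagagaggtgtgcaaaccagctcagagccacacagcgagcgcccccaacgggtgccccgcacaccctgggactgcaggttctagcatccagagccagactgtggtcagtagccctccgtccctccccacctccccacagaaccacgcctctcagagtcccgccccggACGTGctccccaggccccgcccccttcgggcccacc
Hk2 chr6:82774455-82774704 - strand: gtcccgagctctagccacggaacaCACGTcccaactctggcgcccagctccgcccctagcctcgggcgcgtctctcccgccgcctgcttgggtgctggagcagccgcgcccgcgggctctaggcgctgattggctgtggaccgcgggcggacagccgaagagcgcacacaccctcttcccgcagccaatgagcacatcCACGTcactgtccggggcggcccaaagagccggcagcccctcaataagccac
Pfkl chr10:78009808-78010057 - strand: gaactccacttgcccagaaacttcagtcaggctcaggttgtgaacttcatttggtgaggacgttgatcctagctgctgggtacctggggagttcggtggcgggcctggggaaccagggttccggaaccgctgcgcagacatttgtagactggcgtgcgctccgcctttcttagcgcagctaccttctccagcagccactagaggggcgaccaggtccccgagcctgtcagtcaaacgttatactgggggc
The motifs were the double E-box, which is a pair of CACGNG separated by any 5 bases, the E-box CACGTG and the hypoxia response core ACGTG, each searched on both strands, and an E-box always holds the core on both strands. Txnip held 1 double E-box, at positions -85 to -69 from the start, and no single E-box or core. Arrdc4 held no double E-box under this spelling and 1 E-box, at -193 to -188. Over all 32851 such windows searched, 0.0457% held the double E-box, 6.02% the E-box and 16.6% the core. All 10 members matched at least 1 of 14 windows, and 6 of these windows, from 5 genes, held the core. Slc2a1 had it at -36 to -32 and Hk2 at -226 to -222 and at -52 to -48, while the Pfkl window held none of the 3 motifs. A match describes letters and no binding was measured.

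The labels were checked against marker genes. All 8 fibroblast markers lay above 5.01, used as the floor and equal to the median over all probe sets without controls, on each of the 6 arrays, with list medians between 10.6 at day 3 and 11.8 in MEF. The median was 11.7 on the array that carries the endogenous PV label. Of 7 markers of parvalbumin and GABAergic neurons, between 2 and 4 lay above the floor on any array. On that array this was 4 of 7, with a summed level of 7.75 on the log2 scale against 7.66 in MEF. That array therefore goes against its label and is called the endogenous-labelled array throughout. Its comparison stands by itself, and no other comparison used that array. The check did not establish the labels of the induced arrays either. Sorted cells had 2 of the 7 markers above the floor, with a summed level of 7.87. Their summed fibroblast level was 14.5 against 14.7 in MEF. Pvalb was higher in sorted cells, at 6.29 against 5.23 in MEF. In the same list Lhx6 was at 5.48 against 5.53 and Gad1 at 4.68 against 5.19. Gad2, Slc32a1, Kcnc1 and Kcnc2 lay under the floor on both arrays. Summed pan-neuronal markers were higher, at 9.74 against 8.91, with 4 of 6 measured genes above 0 and 2 below. The glutamatergic marker Slc17a7 was at 6.06 against 4.43, and it alone of 3 in its list was above the floor. Names of induced arrays therefore follow the labels and not a verified cell type.

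Txnip was bright on 5 arrays and near the floor on 1. Its log2 intensity was 11.75 in MEF, 5.19 at day 3, 10.48 at day 7 and 10.18 at day 14. It was 10.20 in sorted cells and 10.37 on the endogenous-labelled array. The day 3 value lay at percentile 60.4 of the control probe sets of that array and at percentile 46.9 of its genes. On the other 5 arrays Txnip lay at or above percentile 98.6 of genes, so it was among the brighter probe sets there and within the bulk of the controls at day 3. The day 3 reading was 6.57 log2 units under MEF and 5.30 under day 7, but a reading among the controls gives only a bound. With the control percentile 95 of that array, 7.09, in its place, Txnip was at least 25.4-fold lower at day 3 than in MEF and at least 10.5-fold higher at day 7 than at day 3. These values chose the gene and support nothing. The day 3 reading rests on 1 array and 1 probe set, and a local fault of that array was not tested, since scanner files were not used here. In samples of mixed cells, fewer cells of a type and less RNA per cell cannot be told apart.

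**Figure D1:**
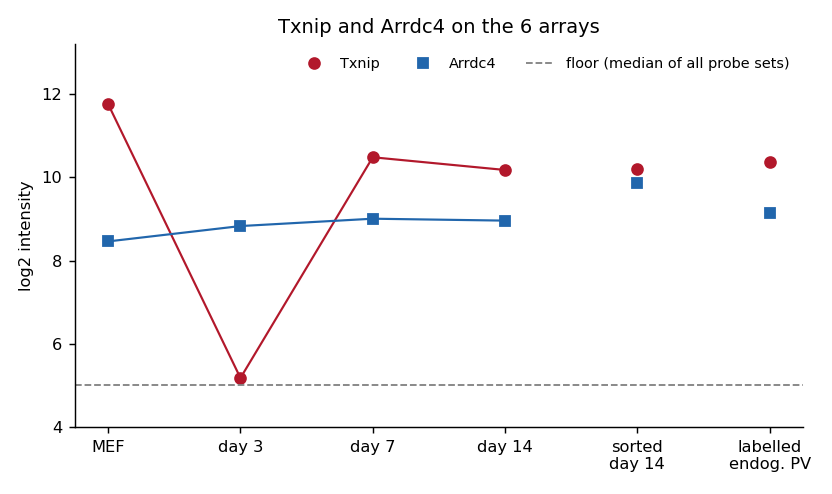
Log2 intensity of Txnip (circles) and Arrdc4 (squares) on each of the 6 arrays, 1 point an array, with lines joining the time course and a dashed line at the floor of 5.01. Txnip sits at 5.19 at day 3 and at 10.18 or more on the other arrays, while Arrdc4 stays between 8.46 and 9.87, and levels of the 2 probe sets are not comparable with each other.

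Txnip did not return to its MEF level. Day 7 was lower than MEF by 1.27 on the log2 scale, a 2.42-fold difference, and day 14 was lower by 1.58, a 2.98-fold difference. Sorted cells differed from MEF by -1.55 and the endogenous-labelled array by -1.38. The 4 later values spanned 10.18 to 10.48 and so lay within 0.30 of each other. As a partial measure of technical error, the log2 differences given by the 2 brightest probe sets of a gene were compared over 327 to 403 genes. The spread is the SD of their disagreement on the same arrays, scaled to a single probe set. It leaves out variation between cultures, and also RNA, labelling or array error that moved both probe sets alike. It was 0.27 for day 14 against day 7, 0.33 for sorted cells against day 14 and between 0.32 and 0.50 for the other 5 comparisons. The Txnip difference between days 14 and 7, -0.30, was about the size of that spread, and the differences of day 14, sorted cells and the endogenous-labelled array from MEF were at least 3.08 times their own spread.

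A further probe set carries Txnip together with the predicted gene Gm15441, so its signal cannot be assigned to Txnip alone. It read 6.50 in MEF, 4.67 at day 3, 5.80 at day 7 and 5.49 at day 14. It read 5.84 in sorted cells and 5.25 on the endogenous-labelled array. Its lowest value was also on the day 3 array, below the floor, and its highest in MEF.

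Few genes shared the dip. Trough depth was the lower of the MEF and day 7 values minus the day 3 value, and 109 of 22180 genes reached 1 log2 unit and 6 reached 2. Txnip had 5.30, followed by Prelp, a matrix proteoglycan, at 3.15, and Mmp3, a stromelysin, at 2.55. Ccdc80 had 2.28, the chemokine Cxcl14 2.16 and the secreted Wnt modulator Sfrp2 2.05. These 5 genes encode secreted proteins. At day 3 they had 6.39 (Prelp), 6.77 (Mmp3), 6.32 (Ccdc80), 8.48 (Cxcl14) and 7.22 (Sfrp2), all further above the floor than Txnip. Of the 7 deepest genes, 5 had a day 3 reading under the control percentile 95, so their depths and order are not firm. None of the other 9 members had a trough of 1, and the deepest, in Pdk1, was 0.20.

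**Figure D2:**
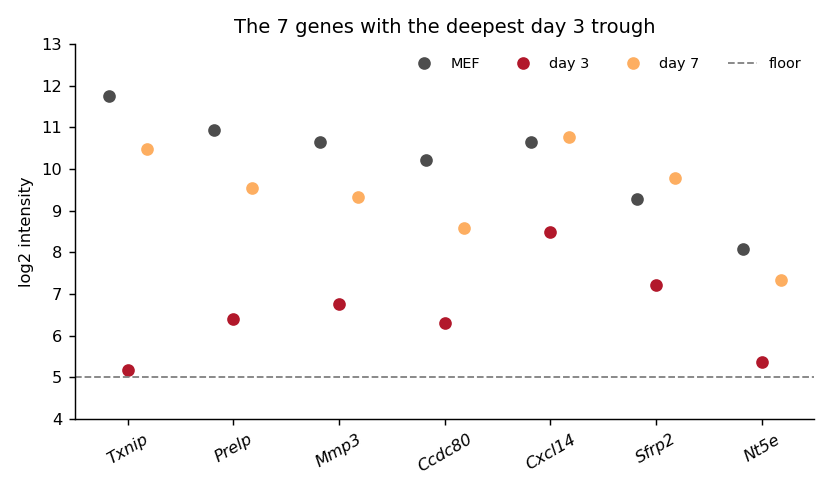
Log2 intensity in MEF, at day 3 and at day 7 of the 7 genes with the deepest day 3 trough, 1 array a point, ordered by trough depth, with a dashed line at the floor. Txnip has a depth of 5.30 and reaches 5.19 at day 3, while Nt5e, the last shown, has a depth of 1.98.

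Genes were also ranked by Pearson correlation with Txnip over the 6 arrays, among the 340 genes that spanned at least 2 log2 units. The most alike was Hacd4, an enzyme of very long chain fatty acid elongation, with r = 0.96, followed by Thy1, a surface glycoprotein and 1 of the fibroblast markers, with r = 0.93. Srpx2 had 0.82, Prelp 0.81, Egfl6 0.81 and Fxyd6 0.79. The same 6 arrays, and above all the day 3 array, lie behind every one of these values. Over the 5 arrays without day 3, Hacd4 had 0.90, Prelp 0.64, Srpx2 0.46, Fxyd6 0.32, Thy1 0.16 and Egfl6 -0.04. Of these genes, only Hacd4 kept a value of at least 0.90 without that array.

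Other gene groups were also low on the day 3 array, and their part in the Txnip value was not tested. Over all genes tested, 2.7% were at least 2-fold lower at day 3 than in MEF. Of 7 cell division genes measured, 6 were at least 2-fold lower than in MEF, with a median of -1.51. At day 7 all 7 were at least 2-fold higher than at day 3, with a median of 1.53, against 2.14% of genes tested. Of 8 fibroblast markers, 4 were at least 2-fold lower at day 3 than in MEF and 0 higher. Their summed level was 14.2 at day 3 against 14.7 in MEF. Of 6 macrophage markers, 5 were above the floor on either array. All 5 were lower at day 3 than in MEF, 4 of them at least 2-fold. The summed level of the 6 was 8.31 at day 3 against 10.6 in MEF. The remaining marker, Tyrobp, was under the floor on both arrays.

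Arrdc4 did not dip at day 3. It had 8.46 in MEF, 8.83 at day 3, 9.01 at day 7 and 8.96 at day 14. It had 9.87 in sorted cells and 9.14 on the endogenous-labelled array. MEF was the lowest of the 6 and sorted cells the highest. The difference of day 3 from MEF was 0.37, or 1.15 times the technical spread, and after centring on housekeeping genes it was 0.08. Sorted cells were 1.88-fold above unsorted day 14 cells, 2.71 times the spread, and 2.65-fold above MEF, 2.79 times the spread. Txnip differed by 0.03 between those sorted and unsorted cells. Over the 6 arrays the correlation of Arrdc4 with Txnip was 0.03, and over the 5 arrays without day 3 it was -0.73. Without day 3 the correlation with Txnip was -0.97 for Hk2, -0.92 for Pfkl and -0.88 for Slc2a1, against -0.40, -0.08 and -0.51 over all 6. These are descriptions of few arrays, and without day 3 MEF stands apart as high in Txnip and low in these genes.

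Of the other 4 alpha-arrestin genes, 3 were above the floor and 0 passed 2-fold in any of the 7 comparisons. Over all genes tested, at most 6.04% were higher and 2.7% lower in a comparison, so that count says little. Arrdc3, which is known to direct receptor trafficking, differed from MEF by 0.41 at day 3. Arrdc2 differed by -0.16. Arrdc1, a protein of plasma membrane vesicle budding, had 4.93 at day 3, under the floor, against 5.49 in MEF. Arrdc5 lay under the floor on every array.

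The genes of the glucose sensors were measured too. Mlxip, which encodes MondoA, had 7.18 in MEF, 6.99 at day 3, 7.71 at day 7 and 7.61 at day 14. It had 8.16 in sorted cells and 7.98 on the endogenous-labelled array. Its lowest value was at day 3 and its highest in sorted cells. The difference of day 3 from MEF was -0.20, or 0.62 times the spread, and a link to Txnip or Arrdc4 was not tested. Mlx had 6.27 in MEF, 6.32 at day 3, 6.34 at day 7 and 6.81 at day 14, and Mlxipl, which encodes ChREBP, stayed between 4.28 at day 3 and 5.03 on the endogenous-labelled array, close to or under the floor. Of 5 measured genes in this list, 1 was at least 2-fold lower at day 3 than in MEF and 0 higher, with a median of -0.11. Over all genes tested, 2.7% were lower. That gene was Klf10, a transcription factor induced by TGF-beta and known to answer to glucose, with 6.06 at day 3 against 7.17 in MEF. Klf10 stayed low at day 7, with 6.11, and had 6.63 at day 14 and 6.03 on the endogenous-labelled array.

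The double E-box was looked up in all genes searched. It was found before 14 genes, of which 8 were above the floor in MEF or at day 3. Of these 8, Txnip was lower by 2-fold or more and 0 were higher, against 2.7% and 2.37% of genes tested. The median difference of day 3 from MEF was 0.08. Txnip was chosen for its low day 3 value, so its call here supports nothing. The other 7 lay between -0.51 for the lysosomal mannosidase Man2b2 and 0.36 for Fnip1, a folliculin partner. Fem1b had -0.32, Rbbp4 0.10 and Nfkb2 0.08. The motif required 2 copies of CACGNG in the same direction, so paired E-boxes of other spellings were not counted.

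Of the members for glucose uptake and trapping, Hk2 was at least 2-fold higher at day 3 than in MEF, Slc2a1 fell short of 2-fold and Hk1 was at its MEF level. Slc2a1, the carrier of basal glucose uptake known as GLUT1, had 9.38 in MEF, 10.34 at day 3, 10.28 at day 7 and 10.42 at day 14. It had 10.30 in sorted cells and 9.81 on the endogenous-labelled array. MEF was lowest, the 4 induced arrays lay within 0.14 of each other, and the endogenous-labelled array fell between. The difference from MEF was 0.97 at day 3, 3.03 times the spread, and 1.05 at day 14, 2.44 times the spread. Housekeeping centring gave 0.68 for both. A dim further Slc2a1 probe set, which spanned 5.10 to 5.59, differed from MEF by 0.35 at day 3 and by -0.03 at day 14.

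Hk2 is the hexokinase that is induced by insulin and hypoxia in many tissues. It had 6.05 in MEF, 7.49 at day 3, 7.50 at day 7 and 7.88 at day 14. It had 7.47 in sorted cells and 7.29 on the endogenous-labelled array. MEF stood below all 5 other arrays, which spanned 7.29 to 7.88. Hk2 was 2.71-fold higher at day 3 and 3.57-fold higher at day 14 than in MEF, 4.51 and 4.28 times the spread. Its relative Hk1, the hexokinase found in most cells, had 7.30 in MEF, 7.28 at day 3, 7.20 at day 7 and 7.54 at day 14, with 7.30 in sorted cells and 7.07 on the endogenous-labelled array. In the 4 comparisons with MEF no Hk1 difference exceeded the spread, and the widest, at day 14, was 0.24 and turned to -0.13 after housekeeping centring. The probe set shared by Hk1 and the antisense gene Hk1os stayed between 4.97 and 5.79.

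Phosphofructokinase subunits differed among themselves. Pfkl, the liver type subunit, had 6.89 in MEF, 7.89 at day 3, 8.69 at day 7 and 8.42 at day 14. It had 8.25 in sorted cells and 8.51 on the endogenous-labelled array. The lowest value was in MEF and the highest at day 7, and the 4 arrays other than MEF and day 3 lay between 8.25 and 8.69. It lay at the 2-fold threshold at day 3 against MEF, 3.14 times the spread, and was 2.88-fold higher at day 14, 3.57 times the spread. Pfkp, the platelet type subunit, had 8.01 in MEF, 7.82 at day 3, 7.99 at day 7 and 8.42 at day 14, with 8.07 in sorted cells and 7.58 on the endogenous-labelled array. Its differences from MEF were -0.19 at day 3 and 0.41 at day 14, both within the spread. Pfkm, the muscle type subunit and not a member, differed by 0.49 at day 14.

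Pfkfb3 makes the sugar bisphosphate that activates phosphofructokinase. It had 6.58 in MEF, 6.69 at day 3, 6.61 at day 7 and 7.12 at day 14. It had 7.28 in sorted cells and 6.71 on the endogenous-labelled array. The unsorted and sorted day 14 arrays were the highest. Day 14 exceeded day 7 by 0.51, 1.85 times the spread, and sorted cells exceeded MEF by 0.69, 1.38 times the spread.

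Ldha, the lactate dehydrogenase subunit that favours lactate production, had 6.93 in MEF, 7.26 at day 3, 7.57 at day 7 and 7.73 at day 14. It had 6.92 in sorted cells and 7.27 on the endogenous-labelled array. Each successive unsorted array was higher, and sorted cells were at the MEF level. Day 14 exceeded MEF by 0.80, 1.86 times the spread, and sorted cells lay 1.76-fold below unsorted day 14 cells, 2.43 times the spread. Ldhb, the subunit typical of oxidative tissues, was not a member and had the reverse order between the sorted and unsorted arrays, 7.14 in sorted cells against 6.88 at day 14, with 5.90 in MEF.

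Pdk1 encodes a kinase that shuts off pyruvate dehydrogenase. It had 6.62 in MEF, 6.43 at day 3, 7.16 at day 7 and 7.27 at day 14. It had 6.88 in sorted cells and 6.96 on the endogenous-labelled array. Day 3 was the lowest and day 14 the highest, and day 7 exceeded day 3 by 0.73, 2.23 times the spread. The further Pdk1 probe set stayed between 1.88 and 2.45, well under the floor, and was not informative.

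**Figure D3:**
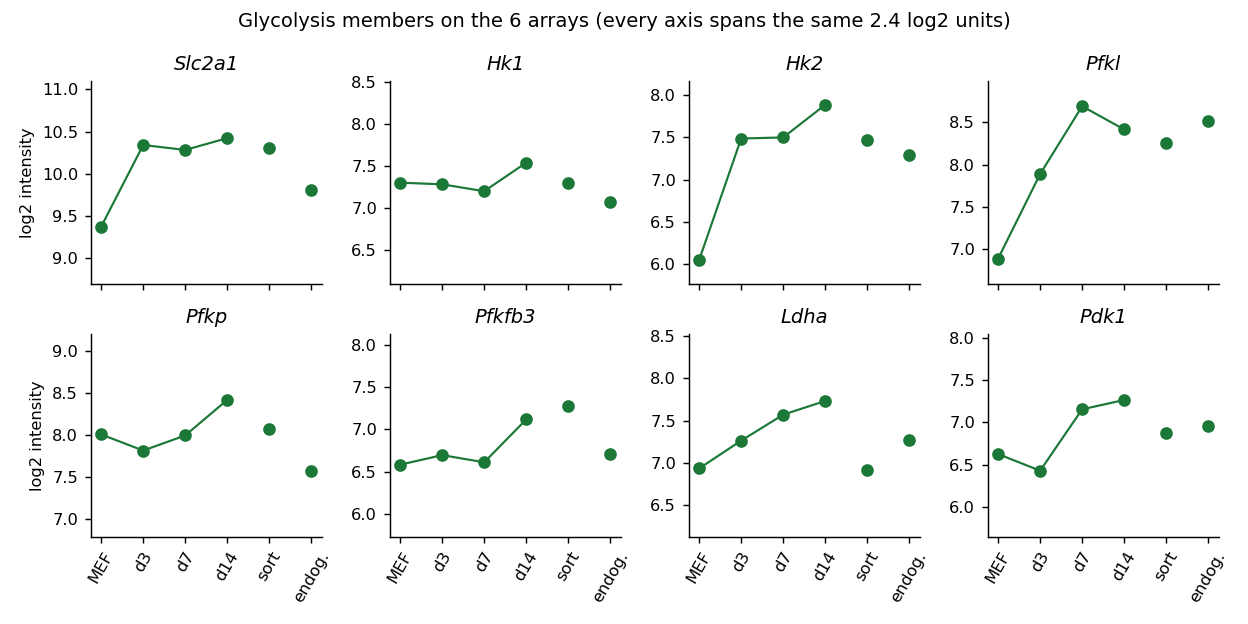
Log2 intensity of the 8 glycolysis members on each of the 6 arrays, 1 point an array, with lines joining MEF and days 3, 7 and 14 and every axis covering an equal span. Hk2, Pfkl and Slc2a1 are lowest in MEF, while Hk1 varies by 0.46 in all.

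At day 3, 2 of the 8 glycolysis members, Hk2 and Pfkl, were at least 2-fold higher than in MEF and 0 were lower, where 2.37% of the 13439 genes above the floor on either array were higher and 2.7% lower. Pfkl lost the call after quantile normalization, at 0.96, and after housekeeping centring, at 0.71, and Hk2 lost it with a floor at percentile 75, at 0.90. Their median difference was 0.22, against 0.02 over those genes, and it turned to -0.07 after housekeeping centring. From day 3 to day 7, 0 of the 8 passed 2-fold in either direction, against 2.14% of genes higher and 0.87% lower, and the median was 0.10 against 0.00 over all genes tested. From day 7 to day 14, 0 again passed, against 1.01% higher and 1.37% lower, with a median of 0.25 against 0.05. Only Pfkl was lower on the later of those arrays among the 8, by 0.27.

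At day 14, 3 of the 8 members were at least 2-fold higher than in MEF, Slc2a1, Hk2 and Pfkl, and 0 were lower, against 3.47% and 2.08% of the 13414 genes tested. Slc2a1 lost the call after quantile normalization, at 0.96, after housekeeping centring, at 0.68, and with the mean of its probe sets, at 0.51. All 8 differences were above 0, between 0.24 for Hk1 and 1.84 for Hk2, and housekeeping centring left 7 of them above 0. The median was 0.72, against 0.07 over all genes tested. After housekeeping centring it was 0.35, against -0.28 over those genes. The 8 genes share both arrays and were chosen with these values in view.

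**Figure D4:**
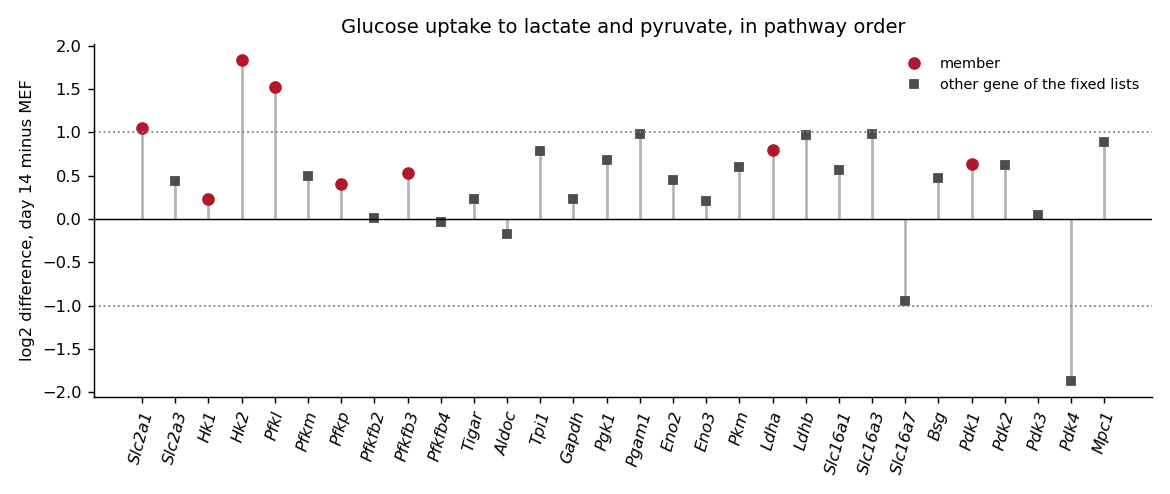
Log2 difference of day 14 from MEF for members (circles) and other genes of glucose uptake, glycolysis, lactate export and pyruvate entry above the floor (squares), in pathway order, with dotted lines at 2-fold. Hk2 at 1.84 and Pfkl at 1.53 are the highest, and Pdk4 at -1.87 is the lowest.

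The remaining glycolysis and lactate genes were read in the same way. Of 22 in the table, 19 were above the floor at day 14 or in MEF. Of these, 0 passed 2-fold in either direction, against 3.47% of genes tested higher and 2.08% lower. Their median was 0.45 and 14 lay above 0. Those nearest the threshold were the mutase Pgam1 at 0.98, the lactate exporter Slc16a3 at 0.98 and Ldhb at 0.98. Tpi1, triose phosphate isomerase, had 0.79. The lowest was Slc16a7, a further monocarboxylate carrier, with 4.73 at day 14, under the floor, against 5.96 in MEF. After housekeeping centring 1 gene of the lactate list was at least 2-fold lower. At day 3, 16 of 20 lay above MEF and 4 below. At least 2-fold lower was 1 and higher 0, against 2.7% and 2.37% of genes tested. That gene was Aldoc, the brain type aldolase, with 5.53 at day 3 against 6.57 in MEF. At day 7 Aldoc had 6.67, 1.14 above day 3. It was the only gene of 20 to pass 2-fold in that step, against 2.14% of genes tested higher and 0.87% lower. Of 10 other glucose carriers, 7 were above the floor and 0 passed 2-fold at day 14 against MEF. The shares over all genes tested were again 3.47% and 2.08%. Slc2a3, the carrier typical of neurons, had 5.54 at day 14 against 5.10 in MEF and 6.02 in sorted cells.

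Genes at the entry of pyruvate into mitochondria differed in opposite directions. Pdk4, a fasting-induced kinase of the same family as Pdk1, had 8.28 in MEF, 5.80 at day 3, 6.46 at day 7 and 6.41 at day 14, with 6.26 in sorted cells and 6.59 on the endogenous-labelled array. It was the 1 gene of 11 in its list that was lower at day 3 and at day 14 by 2-fold or more, and 0 were higher. Over all genes tested, 2.7% were lower at day 3 and 2.08% at day 14. The Pdk4 difference from MEF was -2.48 at day 3 and -1.87 at day 14. Like Txnip it was highest in MEF and lowest at day 3, but it stayed low at day 7. Mpc1, a subunit of the mitochondrial pyruvate carrier, was higher than MEF by 0.89 at day 14 and by 1.12 in sorted cells. It was the single gene of the 11 that passed 2-fold upward in sorted cells, against 6.04% of genes tested. After housekeeping centring it was higher by 0.81 there.

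Hypoxia pathway genes outside glycolysis were mostly above their MEF values at day 14. Of 16 measured, 14 differed upward and 6 were at least 2-fold higher at day 14 than in MEF and 0 lower, where 3.47% of all genes tested were higher and 57.1% lay above 0. The median was 0.85. After housekeeping centring 12 of the 16 lay above 0 and 3 were at least 2-fold higher, Egln3, Egln1 and Ddit4, with a median of 0.48. The pattern was not particular to day 14. Without centring, 14 lay above MEF in sorted cells and 15 on the endogenous-labelled array. At least 2-fold higher were 3 and 5 of the 16, against 6.04% and 3.53% of genes tested. Egln3, an oxygen-sensing hydroxylase, had 6.65 in MEF, 9.39 at day 3, 8.80 at day 7 and 9.15 at day 14, with 10.01 in sorted cells and 8.62 on the endogenous-labelled array. At day 3 it was the single gene of the 16 to pass, against 2.37% of genes tested. Vegfa, an angiogenic factor, was higher by 0.92. Ndrg1 was at -0.75 and Adm, the peptide adrenomedullin, had 8.95 at day 3 against 9.36 in MEF, so the list was mixed at that time. At day 7 Adm, Ndrg1 and the mitophagy receptor Bnip3 were among 4 genes at least 2-fold higher than at day 3. In that step 2.14% of genes tested were higher by that much. Oxygen level was not measured.

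Between sorted and unsorted day 14 cells, Arrdc4 was 1.88-fold higher and Ldha 1.76-fold lower in the sorted cells. Of the 10 members, 0 passed 2-fold in either direction, against 2.12% of 13198 genes higher and 1.02% lower, shares at which a count of 0 says little of the members. Among the 8 glycolysis members 7 were lower in sorted cells, with a median of -0.29 against 0.02 over all genes tested, and housekeeping centring gave -0.24. After Ldha, at -0.81, the widest were Hk2 at -0.41, Pdk1 at -0.39 and Pfkp at -0.35. Of 16 genes of the hypoxia list, 12 were lower in sorted cells and 4 higher. At least 2-fold lower were 2, Adm by -1.21 and Ddit4, a stress-induced inhibitor of mTOR, by -1.14. By that threshold 0 were higher. The summed macrophage markers were 8.47 in sorted cells against 9.27 at day 14 and the summed pan-neuronal markers 9.74 against 9.17, and their part in these differences was not tested.

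Against MEF, sorted cells had 3 of 10 members at least 2-fold higher, Arrdc4, Hk2 and Pfkl, and 1 lower, Txnip, against 6.04% and 2.7% of genes tested. Hk2 was 0.89 there with a floor at percentile 75. The median of the 8 glycolysis members was 0.47 against 0.08 over all genes tested. Ldha differed from MEF by -0.02 there, and Hk1 had 7.30 on both arrays. Of 19 other glycolysis genes, 14 lay above MEF. At least 2-fold higher were 2, the lactate carrier Slc16a1 by 1.37 and the enzyme Ldhb by 1.23. Ldhb was at 0.92 after housekeeping centring.

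On the endogenous-labelled array, against MEF, 2 of the 10 members were at least 2-fold higher, Pfkl by 1.62 and Hk2 by 1.25, and 1 was lower, Txnip, against 3.53% and 1.61% of genes tested. Hk2 was 0.71 there with a floor at percentile 75 and 0.98 after housekeeping centring. The glycolysis median was 0.34 against 0.04 over all genes tested. Pfkp, at 7.58, and Hk1, at 7.07, had their lowest values of the 6 arrays here. Its summed macrophage level was 10.9 against 10.6 in MEF, and its fibroblast level 14.9 against 14.7.

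At a stricter threshold of 4-fold, Txnip was the only member to pass, at day 3 against MEF and at day 7 against day 3. These calls follow from the low day 3 value by which Txnip was chosen, so they support nothing. At day 3, 0.461% of genes tested were at least 4-fold higher than in MEF and 0.357% lower. At day 7, 0.171% were higher by that much than at day 3 and 0.0149% lower. The shares were 0.045% and 0.113% for day 14 against day 7 and 0.537% and 0.231% for day 14 against MEF. They were 0.0682% and 0.0985% for sorted cells against day 14, 1.04% and 0.371% for sorted cells against MEF, and 0.68% and 0.0822% for the endogenous-labelled array against MEF.

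**Figure D5:**
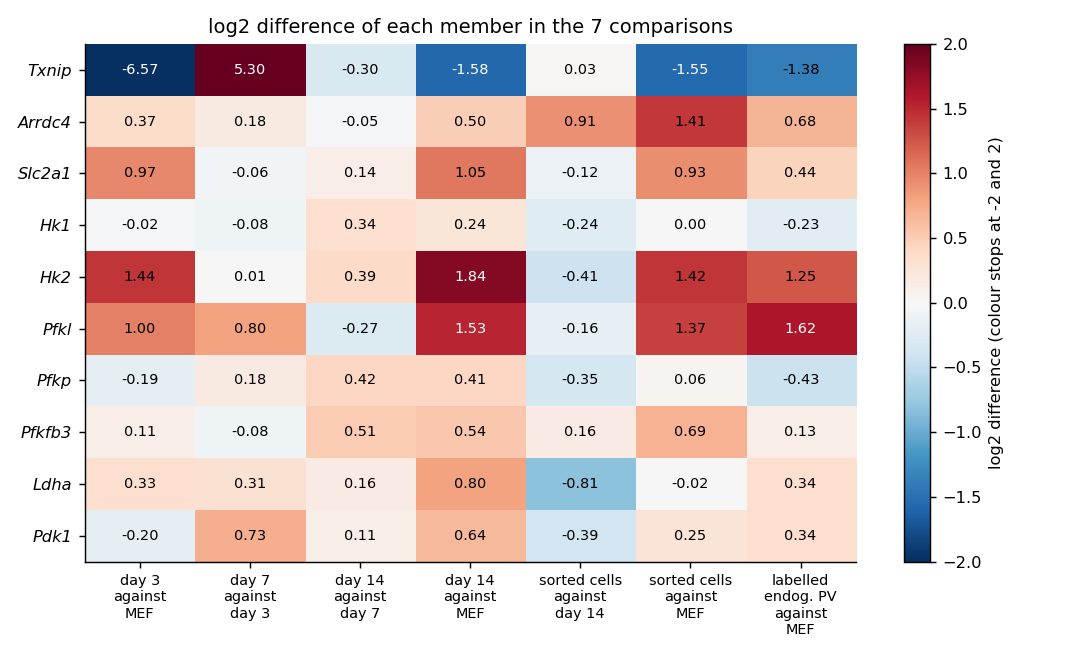
Log2 difference of each of the 10 members in the 7 comparisons, each the array named above minus the array named below, with colour limited at -2 and 2. Txnip shows -6.57 at day 3 and 5.30 at day 7, and the columns against MEF share the MEF array, so they are not independent of each other.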

How the data were processed

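Biotin-labelled cRNA from 6 µg of total RNA a sample was run on Affymetrix arrays, per the labels' protocols. The values are log2 intensities in a single table that the authors deposited, a scale judged from their range. The submitters' processing notes name Affymetrix Expression Console, and its algorithm, version and normalization and the genome build were not given in the sources used here.

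Of 41345 probe sets, 5333 numbered below the first annotated one were set aside as controls. The platform annotation gave 1 symbol for 23521 probe sets, more for 1814 and none for 10677. RefSeq held 23328 of its identifiers and changed 0 symbols. The brightest single-symbol probe set stood for each of 22180 genes, and values were raised to the floor of 5.01 before differences. Genes were counted at 2-fold. No p-value was computed. Medians, counts, trough depths and correlations were computed with pandas 2.3.3 and tested on simulated data.

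Named genes were the members, up to 3 genes a list and comparison with the largest difference, and the 6 most alike to Txnip or deepest in trough. Other values named in the text were chosen after they were seen. Members and lists were chosen with earlier results of these data known. Some listed genes are not analysed here. Windows on chromosome 18 were not searched.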

Additional observations from a re-analysis of the deposited data

How the results depend on the processing

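Alternatives were quantile normalization, centring on 11 housekeeping genes, the mean of all probe sets, no floor and a floor at percentile 75 (6.59). Centring made the median level of the 11 genes equal on all arrays. The median of their differences from MEF was 0.07 at day 3, 0.15 at day 14 and 0.19 in sorted cells. On the endogenous-labelled array it was -0.03 over those above the floor. Results after centring therefore depend on the use of the median level. Housekeeping centring changed the median of the 8 glycolysis members from 0.22 to -0.07 for day 3 against MEF, from 0.72 to 0.35 for day 14, from 0.47 to 0.16 for sorted cells and from 0.34 to 0.08 for the endogenous-labelled array. With the higher floor the Txnip difference was -5.17 for day 3 against MEF and 3.90 for day 7 against day 3, because the day 3 value was raised to it. Its trough depth, on which it was chosen, read 3.90 to 5.34 over the 5 alternatives, added for it after seeing the data, as was the centring of the pathway lists. Among 15 member differences of 2-fold or more, 12 passed after housekeeping centring, 12 with the higher floor, 13 after quantile normalization, 14 with the mean of probe sets and 15 with no floor, and 0 turned sign. At day 3 Hk2 was 0.90 with the higher floor, and Pfkl 0.96 after quantile normalization and 0.71 after housekeeping centring, leaving 1 member higher in place of 2 under each. For Slc2a1 at day 14 against MEF the mean of probe sets gave 0.51, quantile normalization 0.96 and housekeeping centring 0.68. The mean of probe sets put every Pdk1 difference at 0, because its dim further probe set drew the mean under the floor. Hk2 against MEF was 0.89 in sorted cells with the higher floor, and on the endogenous-labelled array 0.71 with that floor and 0.98 after housekeeping centring, leaving 1 member higher there. At 4-fold in place of 2-fold, 0 of the 8 glycolysis members passed in any of the 7 comparisons. Housekeeping centring moved the median of all genes from 0.02 to -0.26 for day 3 against MEF, from 0.07 to -0.28 for day 14, from 0.08 to -0.22 for sorted cells and from 0.04 to -0.22 for the endogenous-labelled array. It changed the share of higher genes among those called from 46.7% to 20.1%, from 62.6% to 21.5%, from 69.1% to 35.8% and from 68.8% to 34.2% in the same order. Values near the floor are limited by signal over background. No paired analysis was possible because each group has 1 array.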

Other observations

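Thioredoxin, pentose phosphate and nutrient-sensing genes were measured on the same arrays. Of 9 thioredoxin system genes, 0 passed 2-fold at day 3 against MEF, where 2.37% of genes tested were higher and 2.7% lower. At day 14 again 0 passed, against 3.47% and 2.08%. Such shares make a count of 0 say little. After housekeeping centring 1 was at least 2-fold lower at day 3. Txn1, which encodes the thioredoxin that Txnip binds, had 8.23 in MEF, 8.14 at day 3, 8.85 at day 7 and 8.63 at day 14. Txnrd1, the cytosolic thioredoxin reductase, was higher than in MEF by 0.91 at day 3 and by 0.72 at day 14. Glrx, a glutaredoxin, had 7.96 at day 3 against 8.79 in MEF and returned to 8.81 at day 7. Of 5 pentose phosphate genes, 1 passed 2-fold at day 14 against MEF, Pgd, a dehydrogenase of the oxidative branch, and 0 were lower, where 3.47% of all genes tested were higher. Pgd had 8.51 at day 14 against 7.50 in MEF, which is at the threshold, and after housekeeping centring it differed by 0.63.

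Pcx, the pyruvate carboxylase that feeds oxaloacetate to the citric acid cycle, had 5.29 in MEF, 6.39 at day 3, 6.99 at day 7 and 6.79 at day 14. It had 7.34 in sorted cells and 7.56 on the endogenous-labelled array, and MEF was the lowest of the 6. It was the single gene of 4 measured in the gluconeogenesis list that passed 2-fold at day 3 and at day 14 against MEF. Over all genes tested, 2.37% and 3.47% were higher by that much. At day 3 Pcx was at 0.82 after housekeeping centring. Of 13 nutrient regulators, 10 lay above their MEF value at day 14 and 3 below. At least 2-fold higher were 2 and lower 0, against 3.47% and 2.08% of genes tested. These were Sesn2, a stress-induced leucine sensor, at 1.66 and Prkag2, a regulatory subunit of the energy sensor AMPK, at 1.32. After housekeeping centring Prkag2 was at 0.95 and 1 gene of the list was at least 2-fold lower. Prkaa2, a catalytic AMPK subunit, had 6.47 in MEF, 6.82 at day 3, 5.80 at day 7 and 7.26 at day 14, with 7.47 in sorted cells, and so was lowest at day 7.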
